A study of Homo sapiens with 24 samples.

Results

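The genes described here build and move mitotic chromosomes. They are 46 genes for centromere and kinetochore proteins, condensin subunits and mitotic kinesins, listed by symbol and found as 46 of the 25365 rows of an FPKM table. Of these, 4 belong to CENP-A and its deposition, 10 to the constitutive centromere-associated network (CCAN), 12 to the outer kinetochore and corona, 2 are shugoshins, 6 are condensin subunits and 12 are kinesins. Messenger RNA was sequenced from PC9 and HCC4006, established lung adenocarcinoma lines with an activating EGFR mutation, in 24 libraries that form 8 groups of 3. Each line was grown as YAP1 knockout cells (YAP1 KO) and as control cells (CTRL), and each of these received OT or the solvent DMSO for 24 hours. OT is osimertinib, an inhibitor of mutant EGFR, at 100 nM together with trametinib, a MEK inhibitor, at 30 nM. The groups are therefore HCC4006 YAP1 KO under OT, HCC4006 CTRL under OT, HCC4006 YAP1 KO under DMSO, HCC4006 CTRL under DMSO and the same 4 groups of PC9. The labels give triplicate dishes and do not say whether the knockout cells of a line are 1 clone, so p-values measure the spread between dishes of the same cells.

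A centromere is the chromosome site marked by nucleosomes that hold the histone H3 variant CENP-A. On this chromatin sits the CCAN, and on the CCAN the outer kinetochore is assembled in mitosis, whose NDC80 and SKA complexes hold the ends of spindle microtubules. Condensins fold chromatin into compact mitotic chromosomes, shugoshins protect cohesin at the centromere, and mitotic kinesins separate the spindle poles, position chromosomes and complete cell division. Most of these genes are transcribed mainly in late S phase, G2 and mitosis, so their messenger RNA is low in cells that do not cycle.

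Promoters of late cell cycle genes are known for the cell cycle genes homology region (CHR), bound by the DREAM and MuvB-B-MYB-FOXM1 complexes, often downstream of CCAAT boxes bound by NF-Y. RefSeq promoter sequence on GRCh38.p14 was matched to 41 of the 46 genes, and the 250 bases upstream of the gene start were searched on both strands. The CHR letters searched were TTTGAA and TTCGAA, the CCAAT box was CCAAT, and an E2F-like group was TTTGGCGC, TTTCCCGC, TTTGCCGC or TTTCGCGC. A CHR match was present in 13 of 41 windows (31.7%), and in 14.6% of all 27305 promoter windows of the same length. CCAAT was present in 26 (63.4%), against 33% of all windows, an E2F-like match in 4 (9.76%), against 2.79%, and CHR together with CCAAT in 10 (24.4%), against 5.24%. These shares describe letters, not bound sites. Of the 10 windows with both motifs, 5 belonged to kinesins, 2 to CENP-A and its deposition (CENPA and HJURP), 2 to outer kinetochore genes and 1 to a condensin. None of the 7 matched CCAN genes had a CHR match.

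The 5 kinesin promoters with both motifs are shown because these genes went different ways in YAP1 KO cells (KIF23 lower and KIF22 higher under OT in HCC4006), and NDC80 is shown as a gene whose 100 bases hold neither. Each run is the 100 bases that end at the last base before the gene start, 5′ to 3′ on the gene's strand, and capitals mark CHR and CCAAT letters on either strand. The positions on GRCh38.p14 are chrX:70290004-70290103 (plus strand) for KIF4A, chr10:92593030-92593129 (plus) for KIF11, chr11:28108157-28108256 (minus) for KIF18A, chr16:29790651-29790750 (plus) for KIF22, chr15:69414249-69414348 (plus) for KIF23 and chr18:2571457-2571556 (plus) for NDC80.
KIF4A: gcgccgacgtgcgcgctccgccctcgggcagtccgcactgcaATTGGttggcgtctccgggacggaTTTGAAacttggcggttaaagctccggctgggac
KIF11: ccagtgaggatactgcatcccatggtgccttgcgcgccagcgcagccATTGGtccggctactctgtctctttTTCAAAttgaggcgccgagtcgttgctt
KIF18A: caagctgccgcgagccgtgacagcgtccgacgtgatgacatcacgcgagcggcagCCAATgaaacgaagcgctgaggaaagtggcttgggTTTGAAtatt
KIF22: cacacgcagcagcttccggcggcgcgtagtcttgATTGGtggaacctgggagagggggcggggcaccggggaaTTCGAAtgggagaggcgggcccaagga
KIF23: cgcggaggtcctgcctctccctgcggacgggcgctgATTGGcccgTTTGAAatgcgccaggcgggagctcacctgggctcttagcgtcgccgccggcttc
NDC80: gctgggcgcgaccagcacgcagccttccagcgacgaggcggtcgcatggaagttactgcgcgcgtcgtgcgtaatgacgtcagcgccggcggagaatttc
In all 5 kinesin windows the CCAAT letters lie upstream of the CHR letters. They read ATTGG, which is CCAAT on the opposite strand, in KIF4A, KIF11, KIF22 and KIF23.

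The summed FPKM of a library was 507120 to 660459, and relative depth, from the step that 1 read makes in low genes, was 0.945 to 1.42. Absolute depth is unknown. YAP1 was lower in every YAP1 KO library than in every CTRL library of its line. In HCC4006 it had 5.97, 6.34 and 6.07 FPKM in YAP1 KO cells and 16.9, 13.9 and 15.6 FPKM in CTRL cells under OT, against 4.23, 4.59 and 3.898 FPKM in YAP1 KO cells and 18.5, 16.5 and 19.7 FPKM in CTRL cells under DMSO. In PC9 it had 11.6, 10.1 and 11.3 FPKM in YAP1 KO cells and 33.8, 34.2 and 34.5 FPKM in CTRL cells under OT, against 12.2, 12.4 and 11.6 FPKM in YAP1 KO cells and 43.3, 42.5 and 42.9 FPKM in CTRL cells under DMSO. A transcript thus remained in the knockout cells. The sum of 5 epithelial markers differed between OT and DMSO in both lines. In HCC4006 it was 1606 to 1616 FPKM in YAP1 KO and 1541 to 1766 FPKM in CTRL cells under OT, against 2379 to 2429 and 2794 to 2948 FPKM in YAP1 KO and CTRL cells under DMSO. In PC9 the sums were 5042 to 5197 FPKM in YAP1 KO and 6538 to 6689 FPKM in CTRL cells under OT, against 4122 to 4279 and 4962 to 5100 FPKM in YAP1 KO and CTRL cells under DMSO. KRT18, an epithelial keratin, fell with OT in HCC4006 (log2 changes of -3.14 and -2.25 in YAP1 KO and CTRL cells), as did KRT8. CDH1 of the same list went the other way there, with 89.5 to 102.2 FPKM under OT and 55.2 to 61.4 FPKM under DMSO. In PC9 CDH1 was also higher under OT (19.4 to 26.0 FPKM) than under DMSO (12.3 to 14.8 FPKM). EPCAM was at 240.4 to 374.7 FPKM in all libraries. Of the 11 markers of other cell types 7 stayed below 1 FPKM, among them PTPRC (at most 0.0516 FPKM), CD3E (0.0936) and the 3 endothelial genes, which summed to at most 1.09 FPKM. The others were CD68, LYZ (up to 2.30 FPKM), COL1A1 (up to 4.59 FPKM) and COL1A2. CD68 made up nearly all of the leukocyte sum of 4 genes, which in HCC4006 was at least 82.6 FPKM under OT and at most 23.8 FPKM under DMSO, with CD68 up to 107.6 FPKM. COL1A2 reached 15.98 FPKM in HCC4006, and the fibroblast sum there was 19.2 to 20.5 FPKM in CTRL cells under OT and at most 7.65 FPKM in YAP1 KO cells under OT and in the DMSO libraries. The part of the epithelial, leukocyte and fibroblast sums in the results below was not tested.

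Of the 46 genes, 45 could be tested in each line, where a gene was tested with at least 1 FPKM in at least 3 of the 12 libraries. KIFC1, a kinesin that moves to microtubule minus ends, was listed at 0 in all 24 libraries, and no statement on its level is made. The other 45 had values above 0 everywhere. Under DMSO their group means lay between 3.54 FPKM (CENPE, PC9 YAP1 KO) and 116.1 FPKM (KIF22, HCC4006 YAP1 KO). Under OT, 18 group means were below 1 FPKM in HCC4006 YAP1 KO cells and 13 in HCC4006 CTRL cells, so these genes passed through their DMSO libraries. None of the PC9 group means was below 1 FPKM. Changes below are differences of group means on the log2(FPKM + 1) scale, which understates the change of genes near or below 1 FPKM, and a gene is called where limma's p, adjusted over all genes tested, is under 0.05. Ratios of mean FPKM are given beside them as the percent of the DMSO or CTRL level. KIF4A and the near-identical KIF4B may share reads. KIF4B was at 0.00679 to 1.31 FPKM, so the level of KIF4A is uncertain by about that much.

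OT lowered every measured member in both lines, and HCC4006 far more than PC9. The 45 genes together had 149.2 ± 1.91 FPKM in HCC4006 YAP1 KO cells and 149.3 ± 0.902 FPKM in HCC4006 CTRL cells under OT (SD, n = 3 each), against 1388 ± 25.8 and 1220.0 ± 40.0 FPKM in YAP1 KO and CTRL cells under DMSO. In PC9 the sums were 425.7 ± 6.38 FPKM in YAP1 KO and 626 ± 11.2 FPKM in CTRL cells under OT, against 1288 ± 15.98 and 1386 ± 28.1 FPKM in YAP1 KO and CTRL cells under DMSO. As a share of all FPKM this is 0.0273% and 0.0272% in HCC4006 YAP1 KO and CTRL cells under OT, against 0.221% and 0.190% in YAP1 KO and CTRL cells under DMSO, and 0.0745% and 0.106% in PC9 YAP1 KO and CTRL cells under OT, against 0.210% and 0.226% in YAP1 KO and CTRL cells under DMSO. In these bulk samples fewer cells in G2 or mitosis and less RNA per such cell cannot be told apart.

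All 45 genes tested were called lower with OT in all 4 comparisons. Among all genes the share called lower was 36.5% in HCC4006 YAP1 KO cells, 36.6% in HCC4006 CTRL cells, 41.4% in PC9 YAP1 KO cells and 40.9% in PC9 CTRL cells, so a lower call was common. The members' median log2 change was -3.12 in HCC4006 YAP1 KO and -2.80 in HCC4006 CTRL cells, where all genes tested had medians of 0.11 and 0.09. It was -1.57 in PC9 YAP1 KO and -1.15 in PC9 CTRL cells, with all genes at -0.02 and -0.04. A fall of at least 2-fold was called for 45 members in HCC4006 YAP1 KO (11.0% of all genes tested), 44 in HCC4006 CTRL (9.74%), 41 in PC9 YAP1 KO (7.83%) and 34 in PC9 CTRL cells (4.60%). For all 45 genes every OT library lay below every DMSO library of the same line and genotype, as for 38.2% of all genes tested in HCC4006 YAP1 KO, 36.4% in HCC4006 CTRL, 42.0% in PC9 YAP1 KO and 42.0% in PC9 CTRL cells. Scaling every library to the same FPKM sum moved the median of all genes in HCC4006 CTRL cells to 0.27 and that of the members to -2.61, and all 45 stayed lower.

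**Figure D1:**
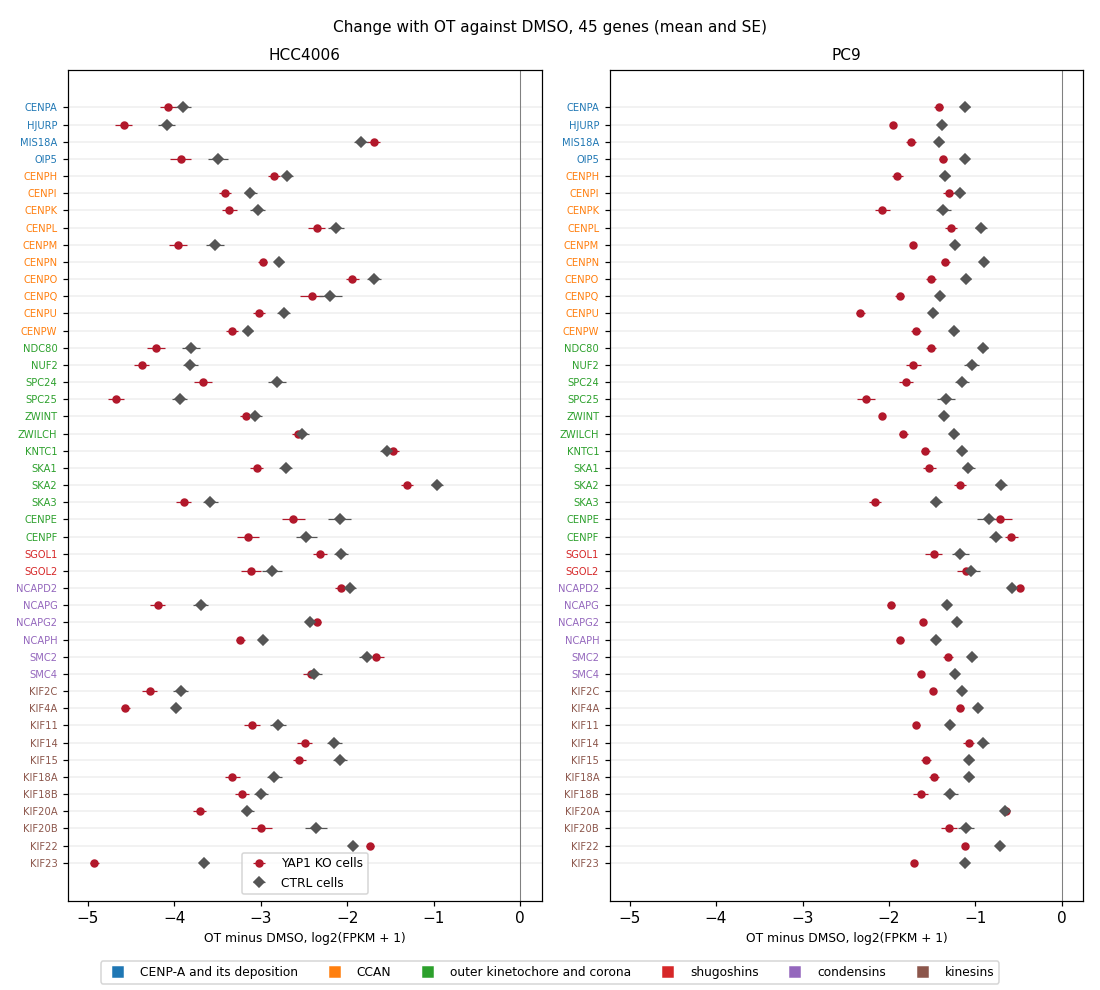
Change with OT against DMSO for the 45 genes tested, on the log2(FPKM + 1) scale (x axis), in HCC4006 (left) and PC9 (right). Points are differences of group means of 3 libraries each in YAP1 KO cells (circles) and CTRL cells (diamonds), bars are standard errors, and gene names are coloured by role; all points lie below 0, down to -4.92 in HCC4006 and -2.33 in PC9.

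CENP-A and its deposition fell with OT in all 4 genes of the group. In HCC4006 CENPA, the centromeric histone itself, had 1.16, 0.657 and 1.09 FPKM in YAP1 KO cells and 1.35, 1.05 and 1.15 FPKM in CTRL cells under OT, against 32.2, 34.1 and 29.9 FPKM in YAP1 KO cells and 31.3, 32.1 and 31.5 FPKM in CTRL cells under DMSO. In PC9 it had 12, 11.7 and 10.4 FPKM in YAP1 KO cells and 14.98, 16.4 and 15.4 FPKM in CTRL cells under OT, against 33.02, 31.05 and 32.3 FPKM in YAP1 KO cells and 34.9, 35.7 and 34.4 FPKM in CTRL cells under DMSO. The OT libraries were all far below the DMSO libraries. The genotypes overlapped under OT in HCC4006 and not in PC9. In HCC4006 HJURP, the chaperone that loads CENP-A, had 0.359, 0.327 and 0.336 FPKM in YAP1 KO cells and 1.51, 0.754 and 0.919 FPKM in CTRL cells under OT, against 31.5, 31.9 and 30.2 FPKM in YAP1 KO cells and 33.3, 34.3 and 33.5 FPKM in CTRL cells under DMSO. In PC9 HJURP had 13.1, 13.4 and 13.4 FPKM in YAP1 KO cells and 19.8, 20.4 and 20.6 FPKM in CTRL cells under OT, against 55.4, 52.8 and 55.6 FPKM in YAP1 KO cells and 56.4, 54.8 and 52.6 FPKM in CTRL cells under DMSO. HCC4006 YAP1 KO cells kept 1.09% of their DMSO level of HJURP and CTRL cells 3.15%, while PC9 YAP1 KO and CTRL cells kept 24.4% and 37.1%. The log2 changes of HJURP were -4.59 and -4.09 in HCC4006 YAP1 KO and CTRL cells (SE 0.101 each), and -1.96 and -1.39 in PC9 (SE 0.0333). MIS18A, a subunit of the Mis18 complex that licenses centromeres for new CENP-A, fell least in HCC4006, to 26.9% of DMSO in YAP1 KO and 23.5% in CTRL cells. In PC9 CTRL cells MIS18A fell most of the group, to 33.3%. OIP5, the Mis18 partner, was left at 4.07% and 5.703% in HCC4006 YAP1 KO and CTRL cells and at 36.6% and 44.4% in PC9.

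In the CCAN all 10 genes fell with OT, in both genotypes of both lines. In HCC4006 CENPU, a subunit that links the CCAN to Polo-like kinase, had 1.07, 0.832 and 0.776 FPKM in YAP1 KO cells and 1.13, 0.931 and 0.871 FPKM in CTRL cells under OT, against 14.2, 15.1 and 13.7 FPKM in YAP1 KO cells and 12.6, 11.9 and 11.97 FPKM in CTRL cells under DMSO. In PC9 CENPU had 6.76, 6.55 and 6.37 FPKM in YAP1 KO cells and 11.3, 10.98 and 12.4 FPKM in CTRL cells under OT, against 35.7, 37.5 and 37.9 FPKM in YAP1 KO cells and 34.7, 32.2 and 35.8 FPKM in CTRL cells under DMSO. In PC9 the YAP1 KO libraries lay below the CTRL libraries under OT and overlapped them under DMSO. Its log2 change of -2.33 (SE 0.0502) was the largest of any member in PC9 YAP1 KO cells. CENPI, which with CENPH and CENPK forms a CCAN subcomplex, was left at 1.69% and 3.79% in HCC4006 YAP1 KO and CTRL cells, the lowest of the group. CENPO, of the same subcomplex as CENPU, kept the most there, 18.9% and 23.99%. In PC9 the group ran between 17.7% (CENPU) and 37.9% (CENPN, which reads the CENP-A nucleosome) in YAP1 KO cells, and between 33.6% (CENPQ) and 52.3% (CENPN) in CTRL cells.

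Among the 12 outer kinetochore and corona genes, those of the NDC80 complex, the main microtubule holder of the kinetochore, fell steeply in HCC4006. There NDC80 had 1.88, 0.992 and 1.28 FPKM in YAP1 KO cells and 1.62, 1.75 and 1.71 FPKM in CTRL cells under OT, against 41.9, 44.5 and 41.4 FPKM in YAP1 KO cells and 37.1, 36.1 and 37.2 FPKM in CTRL cells under DMSO. In PC9 NDC80 had 24.4, 23.5 and 20.5 FPKM in YAP1 KO cells and 37.7, 38.5 and 40.6 FPKM in CTRL cells under OT, against 65.02, 67.8 and 67.4 FPKM in YAP1 KO cells and 75.7, 70.04 and 76.5 FPKM in CTRL cells under DMSO. OT thus left 34.2% of NDC80 in PC9 YAP1 KO cells and 52.6% in PC9 CTRL cells, but 3.25% and 4.61% in HCC4006. In HCC4006 SPC25, on the side of the complex that faces the CCAN, had 0.342, 0.151 and 0.0978 FPKM in YAP1 KO cells and 1.07, 0.683 and 0.805 FPKM in CTRL cells under OT, against 30.3, 29.5 and 28.4 FPKM in YAP1 KO cells and 26.6, 25.8 and 29.7 FPKM in CTRL cells under DMSO. In PC9 SPC25 had 5.01, 4.53 and 3.34 FPKM in YAP1 KO cells and 9.903, 10.04 and 8.69 FPKM in CTRL cells under OT, against 25.4, 24.6 and 22.96 FPKM in YAP1 KO cells and 28.1, 24.4 and 24.9 FPKM in CTRL cells under DMSO. Under OT all YAP1 KO libraries of a line lay below its CTRL libraries. With 0.6696% of the DMSO level left in HCC4006 YAP1 KO cells and 3.11% in CTRL cells, SPC25 lost the largest share of any member in YAP1 KO cells there.

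The SKA complex, which tracks microtubule ends, was uneven. In HCC4006 SKA1 had 0.1605, 0.0968 and 0.0627 FPKM in YAP1 KO cells and 0.351, 0.292 and 0.183 FPKM in CTRL cells under OT, against 8.74, 7.89 and 7.83 FPKM in YAP1 KO cells and 7.14, 7.099 and 7.84 FPKM in CTRL cells under DMSO. In PC9 SKA1 had 2.01, 1.91 and 1.43 FPKM in YAP1 KO cells and 3.08, 2.82 and 3.14 FPKM in CTRL cells under OT, against 7.46, 6.75 and 6.88 FPKM in YAP1 KO cells and 7.44, 7.63 and 7.43 FPKM in CTRL cells under DMSO. Its YAP1 KO libraries under OT lay below the CTRL libraries in both lines, and the highest of the 6 in HCC4006 was at 0.351 FPKM. SKA3 was left at 1.68% and 3.17% in HCC4006 YAP1 KO and CTRL cells, and its 16.9% and 32.1% were the lowest of all members in PC9. SKA2 changed least of all members in HCC4006, with 15.1, 15.1 and 16.5 FPKM in YAP1 KO cells and 17.4, 19.5 and 21.4 FPKM in CTRL cells under OT, against 39.8, 41.9 and 38.3 FPKM in YAP1 KO cells and 39.03, 38.2 and 39.02 FPKM in CTRL cells under DMSO. This is 38.8% and 50.2% of the DMSO level in YAP1 KO and CTRL cells.

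The corona proteins CENPE, a kinesin that carries chromosomes to the spindle equator, and CENPF, which binds dynein regulators, were of modest level. In HCC4006 CENPE had 0.872, 0.727 and 0.811 FPKM in YAP1 KO cells and 0.709, 0.9205 and 0.906 FPKM in CTRL cells under OT, against 9.39, 10.7 and 10.2 FPKM in YAP1 KO cells and 6.68, 5.25 and 9.001 FPKM in CTRL cells under DMSO. In PC9 CENPE had 1.57, 1.69 and 2.02 FPKM in YAP1 KO cells and 1.83, 1.98 and 3.07 FPKM in CTRL cells under OT, against 3.01, 3.29 and 4.34 FPKM in YAP1 KO cells and 4.91, 5.09 and 4.51 FPKM in CTRL cells under DMSO. The OT libraries stood below the DMSO libraries of the same genotype, and among the PC9 groups under OT the genotypes overlapped. In HCC4006 CENPF had 1.63, 1.47 and 1.37 FPKM in YAP1 KO cells and 1.62, 1.802 and 1.68 FPKM in CTRL cells under OT, against 20.6, 20.9 and 21.8 FPKM in YAP1 KO cells and 14.6, 10.7 and 17.5 FPKM in CTRL cells under DMSO. In PC9 CENPF had 9.83, 9.15 and 10.4 FPKM in YAP1 KO cells and 11.2, 10.6 and 11.5 FPKM in CTRL cells under OT, against 13.3, 15.04 and 17.4 FPKM in YAP1 KO cells and 19.9, 19.4 and 19.3 FPKM in CTRL cells under DMSO. Among the HCC4006 CTRL libraries under DMSO replicate 2 was the lowest for both genes. CENPF was left at 7.06% and 11.9% in HCC4006 YAP1 KO and CTRL cells but at 64.1% and 56.7% in PC9. ZWINT, ZWILCH and KNTC1, of the platform and the RZZ complex that recruit checkpoint proteins and dynein, fell to between 10.3% (ZWINT) and 28.8% (KNTC1) in HCC4006 YAP1 KO cells and between 11.1% and 26.3% in CTRL cells.

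**Figure D2:**
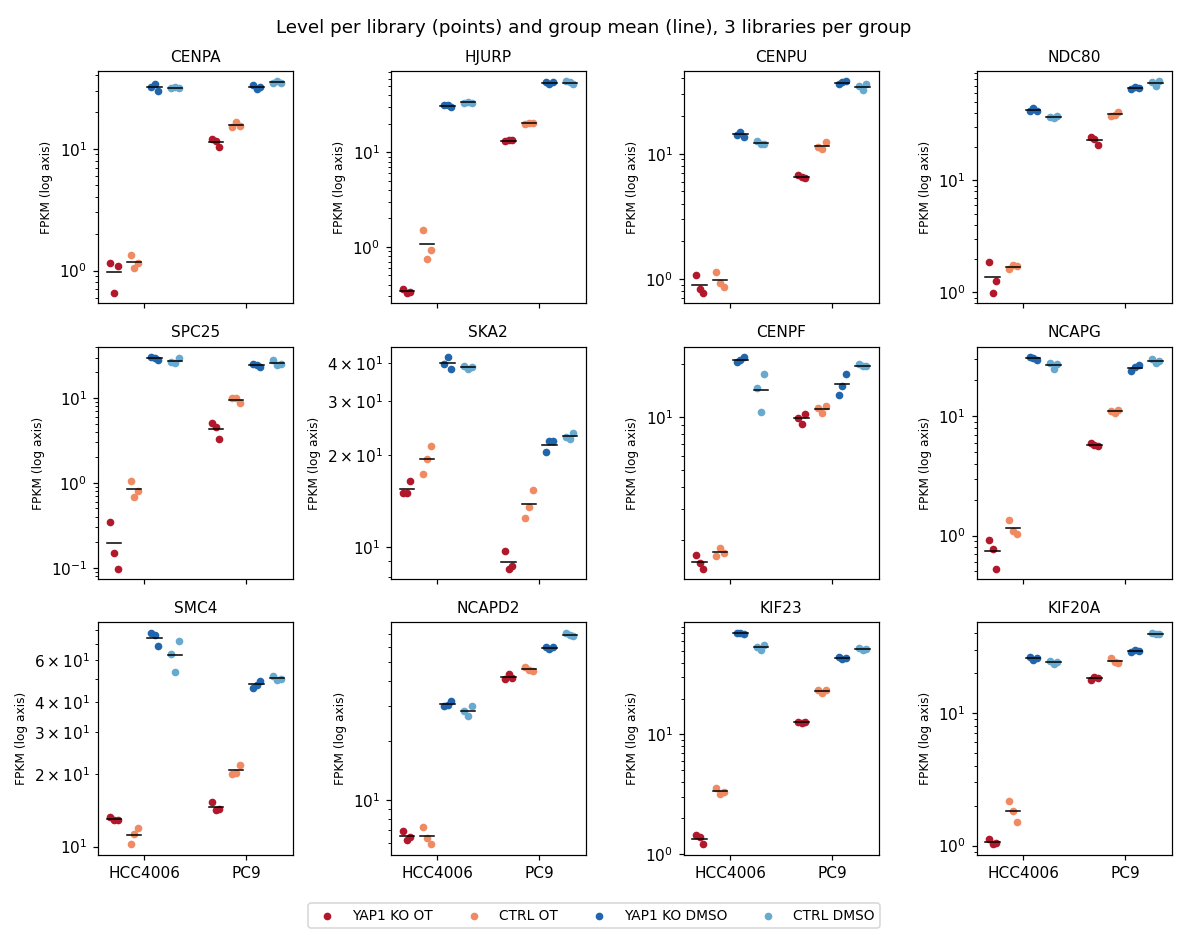
Level of 12 of the genes in every library, in FPKM on a log axis that differs between panels (y axis), for HCC4006 and PC9 (x axis). Points are libraries, 3 per group, coloured by genotype and treatment, and black lines are group means; HCC4006 OT libraries reach down to 0.0978 FPKM for SPC25, and SKA2 has the least distance between OT and DMSO in HCC4006.

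Both shugoshins fell. In HCC4006 SGOL1, the guardian of centromeric cohesin in mitosis, had 0.158, 0.171 and 0.223 FPKM in YAP1 KO cells and 0.447, 0.207 and 0.313 FPKM in CTRL cells under OT, against 5.26, 4.801 and 4.64 FPKM in YAP1 KO cells and 4.47, 4.18 and 5.02 FPKM in CTRL cells under DMSO. In PC9 SGOL1 had 1.44, 1.61 and 1.45 FPKM in YAP1 KO cells and 2, 2.21 and 3.15 FPKM in CTRL cells under OT, against 6.36, 5.95 and 5.71 FPKM in YAP1 KO cells and 7.05, 6.23 and 6.904 FPKM in CTRL cells under DMSO. The genotypes overlapped under OT in HCC4006 and stood apart in PC9. SGOL2, its paralog, was left at 5.49% and 6.86% in HCC4006 YAP1 KO and CTRL cells and at 40.3% and 44.3% in PC9.

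Condensin I has NCAPD2, NCAPG and NCAPH beside the shared ATPases SMC2 and SMC4, and NCAPG2 belongs to condensin II. All 6 genes fell, though subunits of the same complex fell by unequal amounts. In HCC4006 NCAPG had 0.921, 0.7695 and 0.527 FPKM in YAP1 KO cells and 1.34, 1.09 and 1.02 FPKM in CTRL cells under OT, against 31.4, 30.9 and 29.7 FPKM in YAP1 KO cells and 27.9, 25.1 and 27.6 FPKM in CTRL cells under DMSO. In PC9 NCAPG had 5.995, 5.701 and 5.65 FPKM in YAP1 KO cells and 11.2, 10.6 and 11.2 FPKM in CTRL cells under OT, against 24.2, 25.8 and 26.9 FPKM in YAP1 KO cells and 30.1, 27.8 and 29.4 FPKM in CTRL cells under DMSO. Under OT its YAP1 KO libraries were lower than the CTRL libraries in both lines. In HCC4006 SMC4 had 13.2, 12.9 and 12.9 FPKM in YAP1 KO cells and 10.2, 11.3 and 11.99 FPKM in CTRL cells under OT, against 77.7, 76.4 and 68.8 FPKM in YAP1 KO cells and 63.6, 53.5 and 71.7 FPKM in CTRL cells under DMSO. In PC9 SMC4 had 15.3, 14.3 and 14.4 FPKM in YAP1 KO cells and 20.1, 20.3 and 21.9 FPKM in CTRL cells under OT, against 46, 47.2 and 49.1 FPKM in YAP1 KO cells and 51.5, 49.6 and 49.7 FPKM in CTRL cells under DMSO. Here the YAP1 KO libraries under OT lay above the CTRL libraries in HCC4006, a difference that was not called, and below them in PC9, where it was. NCAPG kept 2.41% and 4.29% of its DMSO level in HCC4006 YAP1 KO and CTRL cells, SMC4 17.5% and 17.8%, and SMC2 27.6% and 23.8%. NCAPD2 kept 71.03% in PC9 YAP1 KO and 66.4% in PC9 CTRL cells, the most of any member in that line, with 40.97, 43.8 and 41.7 FPKM in YAP1 KO cells and 47.2, 45.7 and 44.97 FPKM in CTRL cells under OT, against 59.9, 58.5 and 59.6 FPKM in YAP1 KO cells and 70.5, 68.99 and 68.1 FPKM in CTRL cells under DMSO.

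All 11 measured kinesins fell as well. In HCC4006 KIF11, the motor that pushes spindle poles apart, had 2.36, 2.07 and 2.57 FPKM in YAP1 KO cells and 2.45, 2.29 and 2.56 FPKM in CTRL cells under OT, against 28.3, 27.5 and 27.1 FPKM in YAP1 KO cells and 23.2, 19.4 and 26.4 FPKM in CTRL cells under DMSO. In PC9 KIF11 had 5.57, 5.44 and 5.05 FPKM in YAP1 KO cells and 7.05, 7.35 and 7.79 FPKM in CTRL cells under OT, against 19.5, 19.6 and 19.01 FPKM in YAP1 KO cells and 19.7, 19.2 and 20.03 FPKM in CTRL cells under DMSO. The genotypes overlapped under OT in HCC4006 and not in PC9. In HCC4006 KIF20A, which brings the chromosomal passenger complex to the central spindle, had 1.12, 1.02 and 1.04 FPKM in YAP1 KO cells and 2.18, 1.81 and 1.499 FPKM in CTRL cells under OT, against 26.3, 25.1 and 26.2 FPKM in YAP1 KO cells and 24.6, 23.6 and 24.1 FPKM in CTRL cells under DMSO. In PC9 KIF20A had 17.8, 18.5 and 18.4 FPKM in YAP1 KO cells and 26, 24.4 and 23.8 FPKM in CTRL cells under OT, against 28.6, 29.7 and 29.1 FPKM in YAP1 KO cells and 40.1, 39.5 and 39.2 FPKM in CTRL cells under DMSO. KIF20A thus kept 4.09% and 7.59% of its DMSO level in HCC4006 YAP1 KO and CTRL cells, and 62.6% and 62.4% in PC9. In HCC4006 KIF23, the motor of centralspindlin in cytokinesis, had 1.45, 1.38 and 1.202 FPKM in YAP1 KO cells and 3.54, 3.16 and 3.32 FPKM in CTRL cells under OT, against 70.8, 70.5 and 68.9 FPKM in YAP1 KO cells and 53.7, 51.2 and 56.2 FPKM in CTRL cells under DMSO. Its log2 change of -4.92 (SE 0.0543) in HCC4006 YAP1 KO cells was the largest of all members, beside -3.66 in CTRL cells. KIF22, a chromokinesin that pushes chromosome arms from the poles, changed least of the kinesins in HCC4006, with 33.1, 35.01 and 34.1 FPKM in YAP1 KO cells and 22.96, 25.8 and 25.03 FPKM in CTRL cells under OT, against 116, 114 and 118 FPKM in YAP1 KO cells and 94.9, 99.6 and 95.2 FPKM in CTRL cells under DMSO. KIF18B, which shortens microtubules at their plus ends, was left at 1.296% and 2.77% in HCC4006 YAP1 KO and CTRL cells, at 0.0933 to 0.389 FPKM under OT.

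By role, the kinesins of HCC4006 kept a median of 3.74% of their DMSO level in YAP1 KO and 6.90% in CTRL cells, and the CENP-A group 3.55% and 4.72%. The outer kinetochore kept 5.16% and 10.1%, the CCAN 7.91% and 9.78%, the shugoshins 4.62% and 6.97%, and the condensins 17.2% and 16.6%. In PC9 the medians were closer together, 25.6% (outer kinetochore) to 32.6% (shugoshins) in YAP1 KO cells and 38.5% (CCAN) to 44.0% (kinesins) in CTRL cells. Over all members 31 were left below 10% in HCC4006 YAP1 KO cells and 26 in HCC4006 CTRL cells, and none in PC9. Below 50% were 45 and 44 in HCC4006 YAP1 KO and CTRL cells, and 42 and 38 in PC9. The shares of all genes tested that were left below 10% or 50% were not computed.

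The fall was steeper in HCC4006 than in PC9 for every member, tested as the difference of the OT responses of CTRL cells in a fit of all 24 libraries. All 45 were called lower in HCC4006, where 27.1% of all genes were, and 38 by at least 2-fold, where 3.84% were. The median difference was -1.66, beside 0.08 over all genes. KIF4A, a chromokinesin of the spindle midzone, differed most, by -3.01 (SE 0.0671, adjusted p = 3.88e-18), with 4.34% left in HCC4006 and 49.4% in PC9. It was followed by NDC80 (-2.90), CENPA (-2.79) and NUF2, the partner of NDC80 (-2.77). The smallest differences were those of SKA2 (-0.26, adjusted p = 0.0256), KNTC1 (-0.38, adjusted p = 0.0014) and MIS18A (-0.42, adjusted p = 0.00113). With all libraries scaled to the same FPKM sum the SKA2 difference was -0.10 and not called, and it was not called without PC9 CTRL DMSO replicate 2, PC9 CTRL OT replicate 3 or HCC4006 CTRL OT replicate 1 (-0.24, -0.18 and -0.18).

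**Figure D3:**
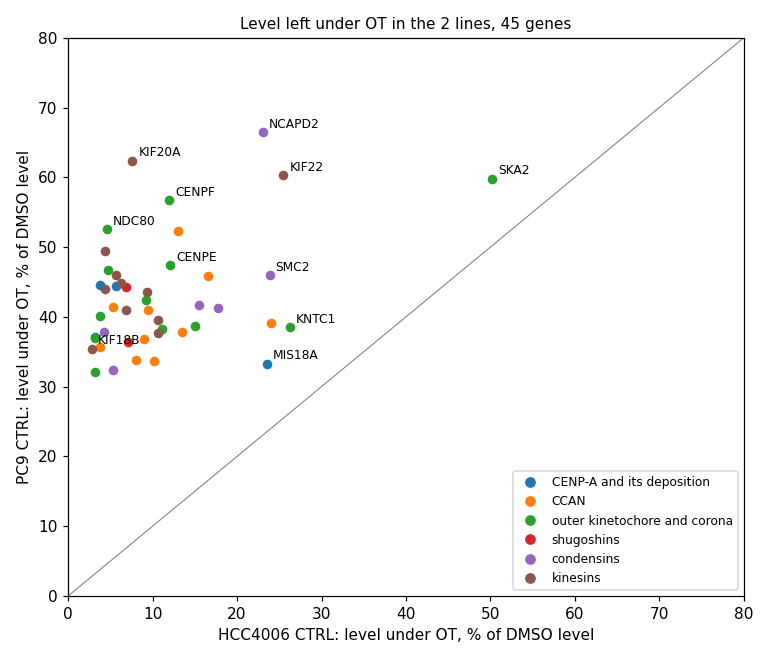
Mean level left under OT in CTRL cells as a percent of the mean DMSO level, in HCC4006 (x axis) and PC9 (y axis), both on linear axes from 0 to 80%. Each point is 1 of 45 genes, coloured by role, from 3 libraries per group, and the grey line marks equal shares; every point lies above it, with SKA2 nearest to it at 50.2% and 59.8%.

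Under DMSO the lines had similar totals, and members were called different between them no more often than all genes tested. Of the 45 genes 20 were lower in HCC4006 than in PC9 CTRL cells under DMSO and 13 higher, shares of 44.4% and 28.9%, where 44.4% and 37.7% of all genes were lower and higher. CENPU was at 12.1 ± 0.349 FPKM in HCC4006 and 34.3 ± 1.84 FPKM in PC9 (SD, n = 3 each), a log2 difference of -1.42. NCAPD2 (-1.26), CENPQ (-1.18) and NDC80 (-0.99) came next on the lower side. On the higher side ZWILCH was at 34.7 ± 1.06 FPKM in HCC4006 and 16.8 ± 0.587 FPKM in PC9 (1.00), before KIF4A (0.77), SKA2 (0.72) and CENPI (0.68).

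Without OT the YAP1 KO cells differed little from CTRL cells, and no gene was called in the same direction in both lines. In HCC4006 11 of 45 were called higher (24.4%), where 9.20% of all genes were, and 0 lower, where 8.65% were. At an unadjusted p under 0.05 the count was 21, none of them lower. The share of all genes at that unadjusted threshold was not computed. The 11 were CENPE, CENPF, KIF14, KIF15, KIF18A, KIF20B, KIF22, KIF23, OIP5, SMC2 and ZWILCH. Of the 45 differences 41 were positive, with a median of 0.15 beside 0.02 over all genes, whose share of positive differences was not counted. The largest difference was that of KIF20B, a kinesin of late cytokinesis, with 15.1, 15.1 and 13.9 FPKM in YAP1 KO cells and 9.85, 7.09 and 11.7 FPKM in CTRL cells (0.60, adjusted p = 0.00652). CENPF, whose values are given above, differed by 0.56 (adjusted p = 0.00934) and CENPE by 0.50 (adjusted p = 0.0213). In KIF20B, CENPF and CENPE the lowest CTRL library was replicate 2, as it was for 30 of the 45 genes. KIF23 differed by 0.38 with CTRL libraries close together. Without CTRL DMSO replicate 1 or 2 the count of 11 was 7, without YAP1 KO DMSO replicate 1 or 2 it was 6, and with a pseudocount of 0.1 in place of 1 it was 7. OIP5 (0.39, adjusted p = 0.0432) lost its call with 8 of the 12 libraries when each was left out in turn, and CENPE with 4.

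In PC9 under DMSO 15 genes were called lower in YAP1 KO cells (33.3%, with 20.0% of all genes) and 2 higher (4.44%, with 19.8%). KIF20A had the largest fall, with 28.6, 29.7 and 29.1 FPKM in YAP1 KO and 40.1, 39.5 and 39.2 FPKM in CTRL cells (-0.43, SE 0.0353). CENPE (-0.37), CENPF (-0.34), NCAPG2 (-0.32), SGOL2 (-0.31) and OIP5 (-0.29) were also lower. SGOL2 lost its call with 4 of the 12 PC9 libraries when each was left out in turn, CTRL DMSO replicate 1, 2 or 3 and YAP1 KO DMSO replicate 1, and it was at -0.19 without the last of these. CENPE lost its call with 9 of the 12 PC9 libraries when each was left out in turn, and at a pseudocount of 0.1 its adjusted p was 0.0654. The genes called higher were CENPO (0.22) and CENPN (0.18), both of the CCAN, the call of CENPN being lost with 3 of the libraries when each was left out. HJURP (0.00) and SKA3 (0.02) were near 0.

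The YAP1 KO effect under DMSO differed between the lines in 22 of 45 genes, all with the HCC4006 effect above that of PC9, where 16.7% of all genes were called so and 13.3% the other way. The largest differences of effects were those of CENPF (0.90, adjusted p = 0.000146), CENPE (0.87, adjusted p = 0.00225), KIF20B (0.80, adjusted p = 0.000734) and OIP5 (0.67, adjusted p = 0.000635). Values on the other side were small and not called, the largest being CENPW (-0.17), CENPO (-0.15), CENPN (-0.12) and HJURP (-0.11). With each library left out in turn 17 to 24 genes were called.

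Under OT the YAP1 KO cells of PC9 had less of nearly every gene than the CTRL cells. All 45 differences were negative, and 43 were called lower by limma (95.6%, with 25.2% of all genes). Called higher were 0 (with 28.5% of all genes), also at an unadjusted p under 0.05, for which the share of all genes was not computed. The median was -0.45, beside 0.02 over all genes. SPC25 had the largest, -1.01 (SE 0.104, adjusted p = 7.16e-06), which is 44.96% of the CTRL level. ZWINT, which links the kinetochore platform to the RZZ complex, had 23.8, 23.2 and 23.6 FPKM in YAP1 KO cells and 43.4, 41.8 and 43.4 FPKM in CTRL cells under OT (-0.84). KIF23 had 12.8, 12.4 and 12.7 FPKM in YAP1 KO cells and 23.8, 22.4 and 23.7 FPKM in CTRL cells (-0.83), and NCAPG differed by -0.82. NDC80 (-0.75), CENPM (-0.75) and CENPU (-0.73) were lower too, each with all YAP1 KO libraries below all CTRL libraries. The smallest called differences were those of NCAPD2 (-0.12, adjusted p = 0.00534) and CENPO (-0.18, adjusted p = 0.018). With all libraries scaled to the same FPKM sum neither was called (adjusted p = 0.0552 for NCAPD2 and 0.0521 for CENPO). CENPO was not called either with only the compared groups in the fit (adjusted p = 0.0587), or without CTRL OT replicate 2 or YAP1 KO OT replicate 3. CENPE (-0.24, adjusted p = 0.159) and CENPF (-0.16, adjusted p = 0.0896) were not called.

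In HCC4006 under OT 36 of the 45 differences were negative and 9 positive, and 25 genes were not called. The share of negative differences over all genes was not counted. Called lower in YAP1 KO cells were 15 (33.3%, with 16.4% of all genes) and called higher 5 (11.1%, with 27.2%), with a median of -0.14 beside 0.06 over all genes. KIF23 had 1.45, 1.38 and 1.202 FPKM in YAP1 KO cells and 3.54, 3.16 and 3.32 FPKM in CTRL cells, a difference of -0.89 (SE 0.0543, adjusted p = 1.56e-07). SPC24, the partner of SPC25, had 0.365, 0.513 and 0.249 FPKM in YAP1 KO cells and 1.46, 1.24 and 1.92 FPKM in CTRL cells (-0.88), 24.4% of the CTRL level. SPC25 (-0.63) and HJURP (-0.60) were at 23.1% and 32.1% of the CTRL level. For these low genes the pseudocount sets the size: at 0.1 the differences were -1.80 for SPC24, -1.75 for SPC25 and -1.35 for HJURP, and all were still called. KIF20A (-0.45), KIF4A (-0.45) and KIF2C (-0.34), a microtubule depolymerase, were the other kinesins called lower. The remaining lower calls were CENPI, CENPW, NCAPG, NCAPH, NUF2, SKA1, SKA2 and SKA3. SKA1 lost its call with CTRL OT replicate 1 or 2 or YAP1 KO OT replicate 2 or 3 left out, with a filter at 5 FPKM (adjusted p = 0.0594) and with all libraries scaled to the same FPKM sum (adjusted p = 0.0547). With only these 2 groups in the fit the count of lower calls was 8, and NCAPG was not among them (adjusted p = 0.0562).

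The 5 genes higher in HCC4006 YAP1 KO cells under OT had other values. SMC2 had 5.38, 4.87 and 4.77 FPKM in YAP1 KO cells and 3.26, 3.25 and 3.33 FPKM in CTRL cells (0.49, adjusted p = 0.00126). KIF22, given above, was at 138% of the CTRL level (0.46, adjusted p = 1e-05). In both genes all 3 YAP1 KO libraries lay above the 3 CTRL libraries. MIS18A (0.23, adjusted p = 0.0376), NCAPG2 (0.20, adjusted p = 0.00421) and ZWILCH (0.20, adjusted p = 0.0419) were higher by less, and the calls of MIS18A and ZWILCH were lost with 3 and 7 of the 12 libraries when each was left out in turn. With median-of-ratios scaling 3 of the 5 were called. All 15 genes called lower in HCC4006 were also among the 43 called lower in PC9, which is 100% of the HCC4006 list and 34.9% of the PC9 list. Over all 45 members 95.6% were called lower in PC9 and 33.3% in HCC4006. Nearly all of any list of members would thus be shared. No member was called higher in PC9, and so none in both lines.

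**Figure D4:**
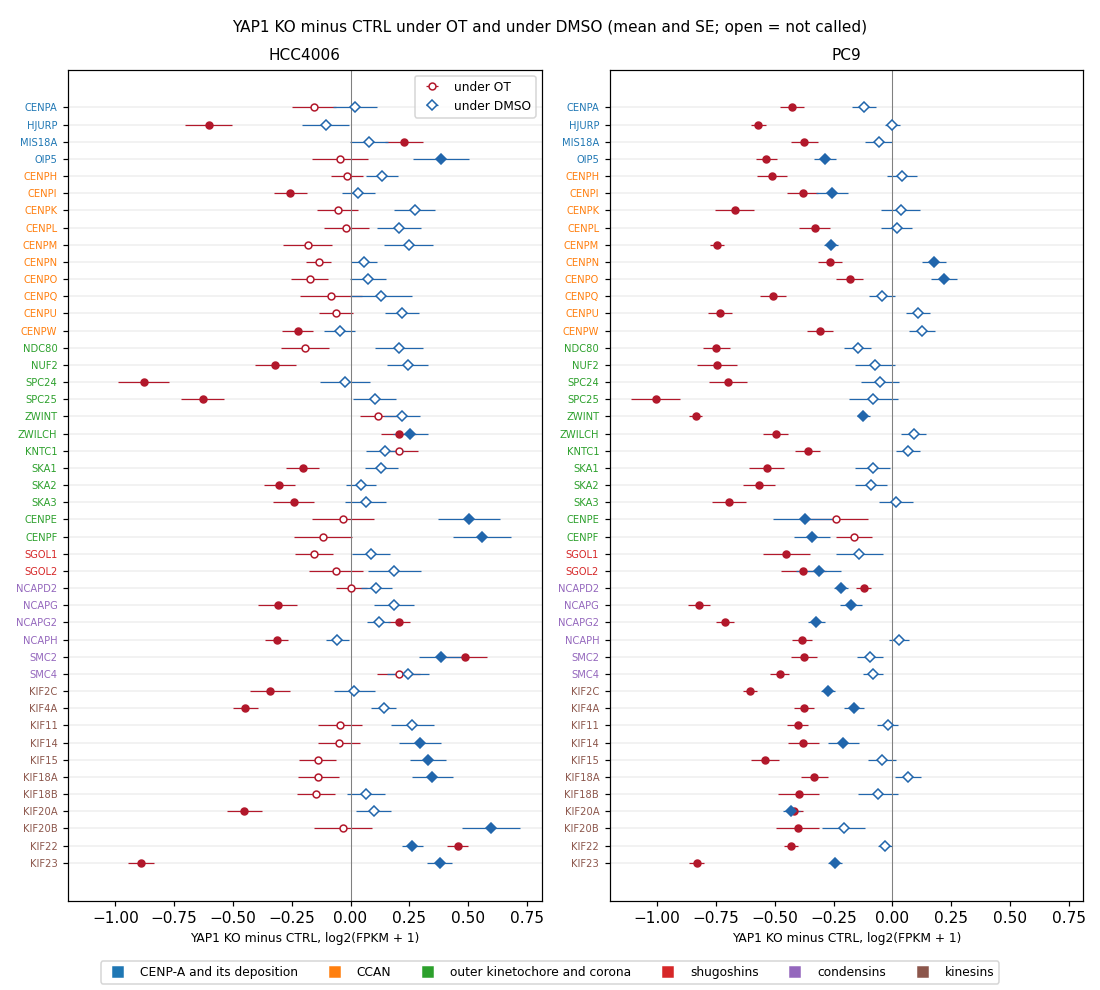
YAP1 KO minus CTRL on the log2(FPKM + 1) scale (x axis) under OT (circles) and under DMSO (diamonds) for the 45 genes tested, in HCC4006 (left) and PC9 (right). Points are differences of group means of 3 libraries each, bars are standard errors, filled points were called and open points were not; under OT all PC9 points lie left of 0, and in HCC4006 the OT points spread between -0.89 (KIF23) and 0.49 (SMC2).

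Lines differed in the knockout effect under OT for 26 of 45 genes, all less negative or more positive in HCC4006, where 25.4% of all genes were called so and 17.1% the other way. ZWINT (0.95, adjusted p = 1.97e-08), NCAPG2 (0.92, adjusted p = 1.1e-10), KIF22 (0.89, adjusted p = 7.42e-11) and SMC2 (0.86, adjusted p = 3.21e-06) differed most. On the other side SPC24 (-0.18), KIF4A (-0.07), KIF23 (-0.06) and KIF20A (-0.04) were not called. This count rests on the scale: at a pseudocount of 0.1 it was 17 higher and 6 lower, at 0.01 it was 15 higher and 7 lower, and with only the compared groups in the fit it was 17. SPC25, 0.38 here, was -0.59 (adjusted p = 0.099) at 0.1, and NCAPH, 0.07 here, was -0.37 (adjusted p = 0.00168).

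The interaction asks whether OT lowered a gene more in YAP1 KO than in CTRL cells. In PC9 this was so for 35 of 45 genes (77.8%, with 13.8% of all genes), and 0 went the other way by limma (with 13.2% of all genes). At an unadjusted p under 0.05 there was 1, NCAPD2, and without YAP1 KO DMSO replicate 3 CENPF was called. SPC25 had the largest interaction (-0.93, SE 0.147, adjusted p = 0.000698), then CENPU (-0.84), ZWINT (-0.71) and SKA3 (-0.71). CENPA (-0.31), HJURP (-0.57), SKA1 (-0.45), NCAPG (-0.65), SMC4 (-0.40) and KIF11 (-0.38) were called as well. The only positive values were those of CENPF (0.18, adjusted p = 0.242), CENPE (0.13, adjusted p = 0.652), NCAPD2 (0.10, adjusted p = 0.127) and KIF20A (0.01, adjusted p = 0.88). Neither shugoshin was called.

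In HCC4006 the interaction was called negative for 15 of 45 genes (33.3%, with 8.18% of all genes) and positive for 0 by limma (with 10.5% of all genes). At an unadjusted p under 0.05 there was 1, KIF22, which was called without CTRL OT replicate 1 or 2. KIF23 stood first at -1.27 (SE 0.0768, adjusted p = 8.89e-07), and its difference was positive under DMSO and negative under OT. SPC24 (-0.86, adjusted p = 0.00228), SPC25 (-0.73, adjusted p = 0.00213) and CENPF (-0.68, adjusted p = 0.0193) followed. At a pseudocount of 0.1 SPC24 and SPC25 were at -1.78 and -1.85. CENPF, KIF15, KIF18A and KIF20B, all among the 15, were called higher in YAP1 KO cells under DMSO and were not called between genotypes under OT. By role, 6 of 11 kinesins, 6 of 12 outer kinetochore genes, 2 of 6 condensins, 1 of 4 genes of the CENP-A group and none of the 10 CCAN genes or 2 shugoshins were called. In PC9 these counts were 7 of 11, 10 of 12, 5 of 6, 4 of 4, 9 of 10 and 0 of 2. The lines shared 12 genes called negative, 80% of the 15 of HCC4006 and 34.3% of the 35 of PC9. Over all 45 members 77.8% were called negative in PC9 and 33.3% in HCC4006. Lists unrelated to each other would thus share about as much. CENPF, KIF20A and KIF20B were called in HCC4006 and not in PC9, and whether their interactions differed between the lines was not tested. The largest positive values in HCC4006, those of KIF22 (0.19, adjusted p = 0.0587) and MIS18A (0.15, adjusted p = 0.412), were not called. With each library left out in turn the HCC4006 count ran between 10 and 18, and HJURP and SKA1 lost their calls with 7 and 9 of the 12 libraries.

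Other genes of these structures, listed by function, were set beside the members. Members and lists were chosen with earlier results of these data known, so a difference between them is not a test. Of 16 further centromere and kinetochore genes OT lowered 14 in HCC4006 YAP1 KO (36.5% of all genes), 13 in HCC4006 CTRL (36.6%) and 15 in each PC9 genotype (41.4% in YAP1 KO and 40.9% in CTRL cells), and raised none (with 46.4% of all genes raised in HCC4006 YAP1 KO, 45.0% in HCC4006 CTRL, 36.9% in PC9 YAP1 KO and 32.0% in PC9 CTRL cells). Their median log2 changes were -0.998, -1.13, -0.73 and -0.63 in HCC4006 YAP1 KO, HCC4006 CTRL, PC9 YAP1 KO and PC9 CTRL cells. The largest in HCC4006 YAP1 KO cells was SPDL1, the spindle checkpoint adaptor for dynein (-2.95), and in HCC4006 CTRL cells CENPV (-2.23). CENPC, the CCAN scaffold, was not called in any of the 4, with 0.14 and -0.15 in HCC4006 YAP1 KO and CTRL cells and -0.03 and -0.12 in PC9. DSN1, of the MIS12 complex, fell with OT (-1.99 and -2.11 in HCC4006 YAP1 KO and CTRL cells).

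Of 7 further condensin and cohesin genes 5 fell in each HCC4006 genotype, where 36.5% (YAP1 KO) and 36.6% (CTRL) of all genes fell, and all 7 in each PC9 genotype, where 41.4% (YAP1 KO) and 40.9% (CTRL) did. NCAPD3, of condensin II, fell most, with -2.30 and -2.18 in HCC4006 YAP1 KO and CTRL cells and -1.70 and -1.33 in PC9. STAG2, a cohesin subunit, rose in HCC4006 (0.70 and 0.29) and fell in PC9 (-0.25 and -0.37). Other kinesins, most of them transport motors, moved both ways. Of 20 tested in HCC4006 OT lowered 3 and raised 9 in YAP1 KO cells and lowered 3 and raised 12 in CTRL cells, and of 18 tested in PC9 it lowered 9 and raised 7 in YAP1 KO cells and lowered 8 and raised 5 in CTRL cells. Over all genes the same comparisons lowered 36.5% and raised 46.4% in HCC4006 YAP1 KO, lowered 36.6% and raised 45.0% in HCC4006 CTRL, lowered 41.4% and raised 36.9% in PC9 YAP1 KO, and lowered 40.9% and raised 32.0% in PC9 CTRL cells. KIF16B, an endosome motor, rose in HCC4006 (1.29 and 0.97 in YAP1 KO and CTRL cells), and KIF5B, the ubiquitous heavy chain of conventional kinesin, fell in all 4 comparisons, by 0.42 to 0.61 on the log2 scale. KIFC3 fell most of these kinesins, with -2.08 and -0.76 in HCC4006 YAP1 KO and CTRL cells and -1.66 and -0.89 in PC9. Its interaction of genotype and OT was -1.32 in HCC4006 and -0.77 in PC9, beside -1.27 for the member KIF23 in HCC4006.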

How the data were processed

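The deposited table holds FPKM (fragment number scaled to transcript length and library size) for 25365 rows in 24 libraries. DESeq2 1.10.1, Cufflinks 2.2.1 and STAR 2.5.1b are listed, with the builds hg19 and GRCh37, in the submitters' processing notes, which give no roles or annotation, and per the labels' protocols the libraries came from a stranded mRNA kit. The headers say NOTX where the labels say DMSO. FPKM are not counts, so log2(FPKM + 1) was fitted with limma 3.58.1 in R 4.3.3 (empirical Bayes moderation with an intensity trend), with the 4 groups of a line in 1 model (8 residual degrees of freedom), and with all 24 libraries in 1 model for differences between lines. Genes needed at least 1 FPKM in at least 3 of the 12 libraries of a line (of both lines between lines), which left 13113 in HCC4006, 12685 in PC9 and 11845 in both. P-values were adjusted by Benjamini-Hochberg over these genes, and an adjusted p under 0.05 is a call. The median residual SD was 0.0896 in HCC4006 and 0.0696 in PC9. Genes named are 14 fixed by role, the extremes of each role and, between lines or genotypes, the 4 largest differences each way; further members are given as examples of their complexes. The members and lists were chosen with earlier results of these data known. Alternatives were other pseudocounts, filters, scalings and variance settings, fits of only the compared groups, the replicate block and each library left out. Promoters came from RefSeq on GRCh38.p14, another build than that of the FPKM.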

Additional observations from a re-analysis of the deposited data

Results flagged for a closer look

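Genotype and treatment interacted in 35 genes of PC9 and 15 of HCC4006, all with a steeper fall under OT in YAP1 KO cells, by limma's test of the interaction term itself. Of all genes tested 13.8% in PC9 and 8.18% in HCC4006 were called negative. In PC9 the largest values on the log2(FPKM + 1) scale were -0.93 for SPC25, -0.84 for CENPU, -0.71 for ZWINT and -0.71 for SKA3. In HCC4006 they were -1.27 for KIF23, -0.86 for SPC24, -0.73 for SPC25 and -0.68 for CENPF.

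The OT response of CTRL cells differed between HCC4006 and PC9 in 45 genes, all falling further in HCC4006, where 27.1% of all genes were called lower. The largest differences were -3.01 for KIF4A, -2.90 for NDC80, -2.79 for CENPA and -2.77 for NUF2.

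The YAP1 KO effect under DMSO was higher in HCC4006 than in PC9 for 22 genes (with 16.7% of all genes), led by CENPF (0.90), CENPE (0.87), KIF20B (0.80) and OIP5 (0.67). Under OT the YAP1 KO effect was higher in HCC4006 for 26 genes (with 25.4% of all genes), led by ZWINT (0.95), NCAPG2 (0.92), KIF22 (0.89) and SMC2 (0.86). In both comparisons between lines no gene was called the other way at a pseudocount of 1.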

How the results depend on the processing

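The 45 lower calls with OT held in both lines and genotypes under every alternative except a filter at 5 FPKM, which left 44 genes to test. Counts that moved by more than 1.5 times were those of the YAP1 KO comparisons. The 11 genes higher in HCC4006 YAP1 KO cells under DMSO were 7 at a pseudocount of 0.1, 7 at 0.01 and 18 with only the compared groups in the fit, and 6 to 15 with each library left out. The 15 lower in HCC4006 YAP1 KO cells under OT were 8 with only the compared groups, and 12 to 17 with each library left out. The 26 genes whose YAP1 KO effect under OT was higher in HCC4006 than in PC9 were 17 at a pseudocount of 0.1, 15 at 0.01 and 17 with only the compared groups, and 21 to 29 with each library left out. In that comparison the sign turned at pseudocounts of 0.1 and 0.01 for SPC25 (-0.59 and -1.04), SKA1 (-0.13 and -0.57) and NCAPH (-0.37 and -0.52). With each library left out the interaction gave 33 to 36 genes in PC9 and 10 to 18 in HCC4006, and YAP1 KO against CTRL in PC9 gave 42 to 44 under OT and 12 to 16 under DMSO. Of the values of named members under all alternatives 7077 kept their status. These were called in the same direction in both fits, or not called in both, whatever their sign. A further 144 lost the call and 66 gained it with the sign kept, and 6 changed sign with a call in either fit. The cause was not tested. Absolute depth is unknown, which limits what can be said of genes below 1 FPKM.

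The replicate numbers were not used as pairs. Deviations of same-numbered libraries correlated at -0.15 to 0.236 in HCC4006 and -0.264 to 0.161 in PC9. Only for CTRL cells of HCC4006 under OT and DMSO did all 3 same-numbered pairs exceed 0.1 (0.134, 0.146 and 0.143), and with the replicate block the 45 lower calls of that comparison were 45. With the replicate block the 11 genes higher in HCC4006 YAP1 KO cells under DMSO were 14, the 15 lower in PC9 under DMSO were 16, and the calls under OT were 15 in HCC4006 and 43 in PC9; of the 5 genes higher in HCC4006 YAP1 KO cells under OT 3 were called. Among the genes named, for YAP1 KO against CTRL under DMSO in HCC4006, OIP5 was then not called (adjusted p = 0.0672) and CENPU, CENPK and KIF11 were (adjusted p = 0.0367, 0.0471 and 0.0350).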
